A study of Mus musculus with 6 samples.

Results

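The genes of 9 costimulatory and co-inhibitory surface molecules (Cd80, Cd86, Cd40, Icosl, Cd274, Pdcd1lg2, Tnfsf9, Tnfsf4 and Cd70) were examined in the spleen of WT and miR-144/451 KO mice. They were chosen by name, as the molecules through which antigen-presenting cells give second signals to T cells, and are 9 of the 44678 gene identifiers measured. The sample records label the RNA-seq libraries as CD8a+ leukocytes of untreated mice, with 3 libraries of genotype WT (C57BL/6J) and 3 of genotype KO (C57BL/6J background, without the genomic segment that holds the precursors of both miR-144 and miR-451). The study introduces its sequencing with a question about dendritic cells (DCs), and its methods describe bead sorts of both DCs and CD8+ T cells, so which sorted cells these libraries hold is not settled by the sources used here. The WT mice were supplied by a university animal centre, and the sources used here do not describe them as littermates of the KO mice. Nothing in the sample records says that each library is a separate animal, so the p-values measure the spread between these libraries, which may be technical. The study asked whether the loss of miR-144/451 alters the activation of DCs, including the costimulatory molecules on their surface.

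T cells need a second signal beside the antigen to become fully active. CD80 and CD86, of the B7 family, give it through CD28 on the T cell, and CTLA-4 competes with CD28 for both of them. ICOSL, also of the B7 family, binds ICOS. PD-L1 (gene Cd274) and PD-L2 (gene Pdcd1lg2) bind PD-1 and restrain the T cell. CD40 is a receptor of the TNF receptor family that T cells engage with CD40 ligand, and its engagement on DCs and B cells raises their stimulatory capacity. 4-1BB ligand (Tnfsf9), OX40 ligand (Tnfsf4) and CD70 are ligands of the TNF family that sustain T cell responses through 4-1BB, OX40 and CD27. In the spleen, DCs, B cells and macrophages are the usual carriers of most of these molecules.

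The mature microRNAs that the KO mice lack are shown first, since a microRNA pairs with messenger RNAs mainly through its seed, bases 2 to 8, given in capitals. The sequences are those of RefSeq (GRCm38.p6), where the hairpins lie on the plus strand of chromosome 11 (miR-144-5p at chr11:78073010-78073032, miR-144-3p at chr11:78073047-78073066 and miR-451a at chr11:78073186-78073207).
mmu-miR-144-5p: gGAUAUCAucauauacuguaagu
mmu-miR-144-3p: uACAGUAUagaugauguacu
mmu-miR-451a: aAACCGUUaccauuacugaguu
The 3 seeds differ from each other. Their complements, TGATATC for miR-144-5p, ATACTGT for miR-144-3p and AACGGTT for miR-451a, were searched on the transcript strand in the longest annotated 3′ UTR of each gene.

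A match was found in 3 of the 9 genes, each with 1 match. They are shown with the bases around them, the match in capitals.
Cd40 (miR-144-3p): atcacaatgATACTGTctcaaaaac
Cd274 (miR-144-3p): gcctctaagATACTGTtacctagag
Pdcd1lg2 (miR-144-5p): tgtaacctgTGATATCactgtttct
On GRCm38 the printed stretch of Cd40 is chr2:165072482-165072506, that of Cd274 is chr19:29387653-29387677 and that of Pdcd1lg2 is chr19:29471100-29471124, all on the plus strand and in the 3′ UTR. No match to any of the 3 seeds was found in Cd80 (UTR of 1896 nt), Cd86 (1493 nt), Icosl (1622 nt), Tnfsf9 (253 nt), Tnfsf4 (1072 nt) or Cd70 (78 nt), and none to miR-451a in any of the 9. Among 11544 tested genes with a 3′ UTR, 13.3% held the miR-144-3p match, 5.58% the miR-144-5p match and 1.91% the miR-451a match. Among genes with a UTR within 20% of the same length, the miR-144-3p match was present in 16.9% for the length of Cd40 (2035 nt) and in 21.7% for that of Cd274 (2683 nt). The miR-144-5p match was present in 2.65% of the genes near the length of Pdcd1lg2 (669 nt). A match of letters is a description and not a measured binding site.

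The libraries held between 8143922 and 8876510 counts, so 3 counts correspond to between 0.338 and 0.368 counts per 1000000 counts of the library (CPM). The genes Mir144 and Mir451a had 0 counts in all 6 libraries, WT included, so they do not check the genotype labels. Cd8a lay between 481 and 1028 CPM and Cd3e, of the T cell receptor complex, between 220 and 398 CPM. The B cell gene Cd79a (250 to 626 CPM) and the DC genes Itgax (103 to 150 CPM) and Zbtb46 (9.33 to 15.01 CPM) were also present in every library, so that the label CD8a+ does not stand for T cells alone. In such bulk RNA, a different number of cells of a type and a different amount of RNA per cell cannot be told apart. WT replicate 1 and KO replicates 1 and 2 stood apart from the other 3 libraries in markers of B cells (2994 to 3453 CPM summed over 10 genes, against 1459 to 1755) and of monocytes or macrophages (1914 to 2383 CPM summed over 10 genes, against 1193 to 1274). KO replicate 2 also had the highest sum of erythroid markers, 2750 CPM against 246 to 861 in the others.

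Of the 9 genes, 6 passed the filter on low counts (Cd80, Cd86, Cd40, Icosl, Cd274 and Pdcd1lg2), and none of the 6 differed between KO and WT at an adjusted p-value under 0.05 in edgeR's quasi-likelihood test, where 4 of 13024 genes tested did (0.0307%). At an unadjusted p-value under 0.05, 1 of the 6, Cd86, was higher in KO, beside 4.14% of all genes tested that were higher in KO at that threshold. In Cd86 and Cd80 all KO libraries were above all WT libraries, which held for 6.71% of the genes tested. The fitted log2 fold changes of the 6 genes were all positive, from 0.08 to 0.45 with a median of 0.36, against a median of 0.00 and 50.6% positive over all genes tested. These 6 values come from the same libraries and move together, as described for the markers, so they are not 6 separate observations.

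**Figure D1:**
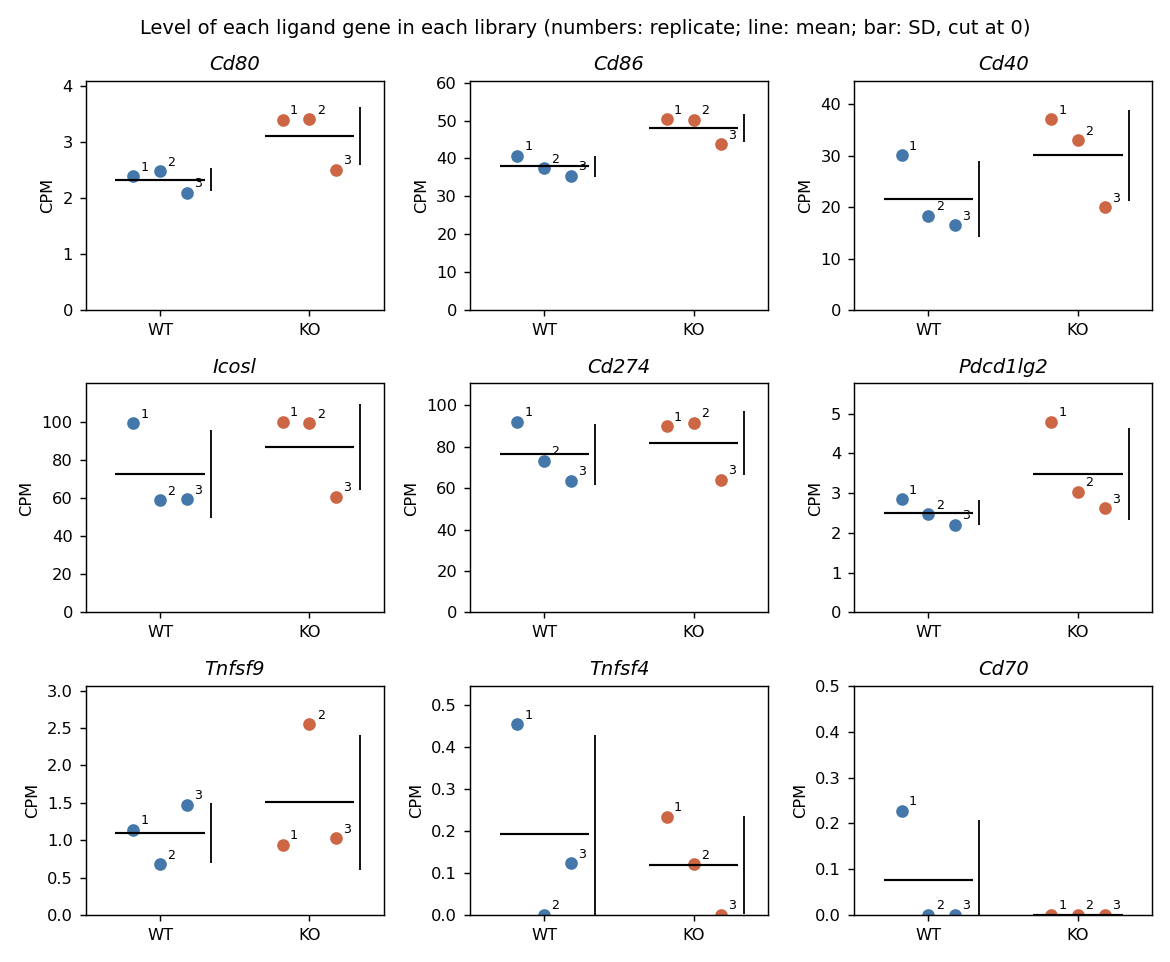
CPM (y axis, from 0 and scaled for each gene) of the 9 genes in the 3 WT (blue) and 3 KO (orange) libraries, with the replicate number beside each point, the mean as a line and the SD as a bar. The groups are apart in Cd86 and Cd80, whereas in Icosl and Cd274 WT replicate 1 lies with KO replicates 1 and 2.

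Cd86 (ENSMUSG00000022901, chr16:36603869-36666081, minus strand) encodes the B7 molecule that resting antigen-presenting cells already carry. Its level was 40.7, 37.4 and 35.5 CPM in WT replicates 1 to 3 and 50.3, 50.2 and 43.8 CPM in KO replicates 1 to 3. All 3 KO libraries were above the highest WT library, and the gap between KO replicate 3 and WT replicate 1 was the narrowest. The mean was 37.9 ± 2.65 CPM in WT and 48.1 ± 3.74 CPM in KO (SD, n = 3 each), a ratio of 1.27. The log2 fold change was 0.32 (SE 0.10), with an unadjusted p of 0.011 and an adjusted p of 0.694 in edgeR's test, so Cd86 did not pass over all genes. Without KO replicate 1 the unadjusted p was 0.053 in the same test, at a log2 fold change of 0.28.

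Cd80 (ENSMUSG00000075122, chr16:38455561-38496335, plus strand), the B7 molecule that appears mainly on activation, was measured with few counts. The WT libraries held 21, 22 and 17 counts and the KO libraries 29, 28 and 22, which is 2.39, 2.48 and 2.09 CPM against 3.40, 3.40 and 2.50 CPM. The KO libraries were above the WT libraries, but KO replicate 3 and WT replicate 2 had the same count and differed in CPM only through their totals. The mean was 2.32 ± 0.205 CPM in WT and 3.10 ± 0.518 CPM in KO (SD, n = 3 each). The log2 fold change of 0.39 (SE 0.30) did not pass the test (adjusted p = 0.85, edgeR), and at this depth a difference of that size was not distinguishable from the spread.

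Cd40 (ENSMUSG00000017652, chr2:165055627-165072948, plus strand), the receptor through which T cells license DCs and help B cells, had 30.1, 18.4 and 16.5 CPM in WT and 37.1, 33.0 and 20.02 CPM in KO. The groups overlapped, because WT replicate 1 was above KO replicate 3. The mean was 21.7 ± 7.42 CPM in WT and 30.1 ± 8.93 CPM in KO (SD, n = 3 each). The log2 fold change was 0.45 (SE 0.28, adjusted p = 0.818, edgeR). Cd40 had the widest range of the 4 genes above 10 CPM, with the highest library 2.26 times the lowest. With 1 library left out, its log2 fold change ranged from 0.26 (without KO replicate 1) and 0.27 (without WT replicate 3) to 0.65 (without KO replicate 3) and 0.76 (without WT replicate 1). The last 2 had unadjusted p-values of 0.0292 and 0.0208 in edgeR's test, and none passed after adjustment. In those 2 fits, 1869 of 13302 and 1229 of 13293 genes tested had an unadjusted p under 0.05.

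Icosl (ENSMUSG00000000732, chr10:78069302-78083913, plus strand), the ligand of ICOS, had 99.3, 58.9 and 59.3 CPM in WT and 99.996, 99.2 and 60.7 CPM in KO. The values fell into 2 levels that did not follow genotype, with WT replicate 1 and KO replicates 1 and 2 near 100 CPM and the other 3 libraries near 60 CPM. The mean was 72.5 ± 23.2 CPM in WT and 86.7 ± 22.5 CPM in KO (SD, n = 3 each), a log2 fold change of 0.24 (SE 0.25, adjusted p = 0.879, edgeR). The difference of the means was therefore smaller than the SD within either genotype. Without WT replicate 1 the log2 fold change was 0.52, with an unadjusted p of 0.0391 and an adjusted p of 0.528 in edgeR's test. In that fit, 1229 of 13293 genes tested had an unadjusted p under 0.05. Without KO replicate 3 the log2 fold change was 0.41. Without WT replicate 2, WT replicate 3, KO replicate 1 or KO replicate 2 it lay between 0.095 and 0.13.

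Cd274 (ENSMUSG00000016496, chr19:29367455-29388095, plus strand), which encodes PD-L1, had 92.0, 73.1 and 63.5 CPM in WT and 89.8, 91.6 and 64.0 CPM in KO. The highest library was WT replicate 1 and the lowest WT replicate 3, so the KO values lay inside the range of WT. The mean was 76.2 ± 14.5 CPM in WT and 81.8 ± 15.4 CPM in KO (SD, n = 3 each), and the log2 fold change was 0.08 (SE 0.17, adjusted p = 0.938, edgeR). It turned to -0.05 without WT replicate 3, -0.0045 without KO replicate 1 and -0.0047 without KO replicate 2, and was 0.23 without WT replicate 1. Of its exon bases, 14.1% overlap an antisense gene (AC119228.1), and whether the counting used strand is not given in the sources used here.

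Pdcd1lg2 (ENSMUSG00000016498, chr19:29410919-29471161, plus strand), the neighbouring gene of PD-L2, had few counts, 25, 22 and 18 in the WT libraries against 41, 25 and 23 in the KO libraries, or 2.84, 2.48 and 2.21 CPM against 4.80, 3.04 and 2.62 CPM. KO replicate 1 was the highest, and KO replicate 3 lay below WT replicate 1. The mean was 2.51 ± 0.318 CPM in WT and 3.48 ± 1.16 CPM in KO (SD, n = 3 each), and the log2 fold change of 0.45 (SE 0.33) did not pass the test (adjusted p = 0.844, edgeR). Without KO replicate 1 it was 0.14. Among the 3 genes with a seed match, the log2 fold changes were therefore 0.45 (Cd40), 0.08 (Cd274) and 0.45 (Pdcd1lg2), beside 0.32, 0.39 and 0.24 in the tested genes without one (Cd86, Cd80 and Icosl).

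The 3 ligands of the TNF family did not pass the filter. Tnfsf9 (ENSMUSG00000035678, chr17:57105325-57107757, plus strand) had counts of 10, 6 and 12 in the WT libraries against 8, 21 and 9 in the KO libraries, so that 1 library, KO replicate 2, stood above the others. Its mean was 1.10 ± 0.400 CPM in WT and 1.504 ± 0.908 CPM in KO (SD, n = 3 each; p = 0.7, exact two-sided permutation test, where the smallest p that 3 against 3 libraries allow is 0.1). Of its exon bases, 14.9% overlap the lincRNA gene Gm11110 on the other strand. Tnfsf4 (ENSMUSG00000026700, chr1:161395409-161418410, plus strand) had counts of 4, 0 and 1 in the WT libraries against 2, 1 and 0 in the KO libraries. Cd70 (ENSMUSG00000019489, chr17:57145997-57149777, minus strand) had 2 counts in WT replicate 1 and 0 in the other 5 libraries. For Tnfsf4 and Cd70 no difference was detectable at this depth, since a count of 0 allows a level of up to 0.338 to 0.368 CPM, by counting error alone.

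Levels of different genes were compared as CPM per kb of annotated exon bases. In this order Cd274 was the highest, with a mean of 21.8 over the 6 libraries (17.5 to 25.4), followed by Icosl with 17.2 (12.8 to 21.6), Cd86 with 11.7 (9.69 to 13.8) and Cd40 with 7.59 (4.83 to 10.9). Pdcd1lg2 (1.53), Tnfsf9 (1.01) and Cd80 (0.732) came next, and Tnfsf4 (0.0845) and Cd70 (0.0450) were the lowest. The ranges of neighbours did not overlap at only 2 steps, from Cd40 to Pdcd1lg2 and from Cd80 to Tnfsf4. Within a library the upper part of the order was steadier, since Cd274 was above Icosl, Icosl above Cd86 and Cd86 above Cd40 in 6 of 6 libraries. Pdcd1lg2 was above Tnfsf9, and Tnfsf9 above Cd80, in 4 of 6. Among the B7 ligands of CD28, Cd86 was thus far above Cd80, and among the ligands of PD-1, Cd274 was far above Pdcd1lg2. With the length of the longest transcript in place of all exon bases, Icosl (28.3) came above Cd274 (21.8) in all 6 libraries.

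**Figure D2:**
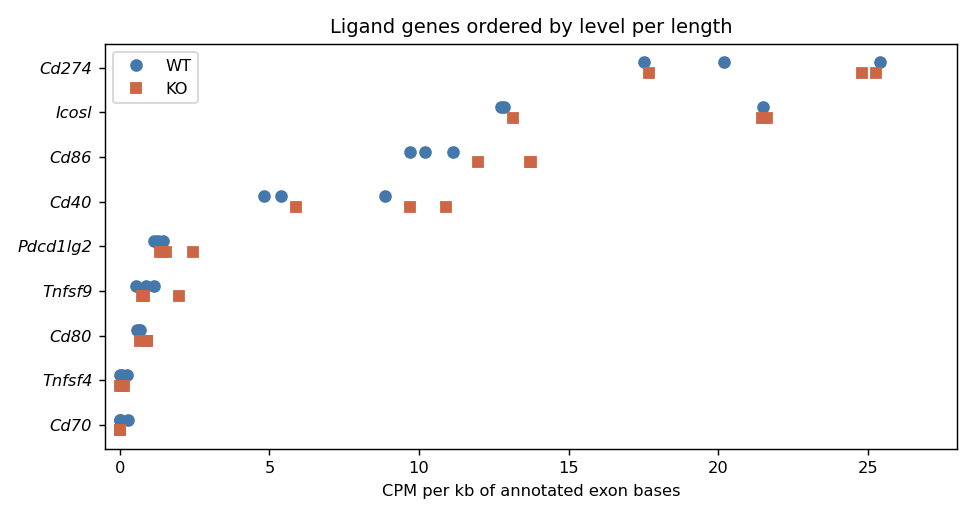
Level of each of the 9 genes as CPM per kb of exon bases (x axis), 1 point per library, WT as blue circles and KO as orange squares, ordered by the mean over the 6 libraries. Cd274, Icosl, Cd86 and Cd40 form the upper part of the order, above 4.83 in every library, and the other 5 genes are at 2.45 or less.

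The ligand genes were set beside the marker genes of the cells that could carry them. Summed over 10 conventional DC markers, the level was 243, 228 and 229 CPM in WT and 278, 296 and 301 CPM in KO. All KO sums were above all WT sums, but taken singly only 2 of the 10 genes had all KO libraries above all WT libraries, beside 6.71% of all genes tested. Itgax, the highest of the 10, overlapped (103 to 125 CPM in WT and 108 to 150 CPM in KO). The log2 fold change was positive in 10 of the 10 genes, and 0 of them passed after adjustment in edgeR's test (3 at an unadjusted p under 0.05). Over all genes tested, 4.14% were higher and 2.11% lower in KO at that threshold, and 50.6% of the log2 fold changes were positive. The 10 B cell markers summed to 2994, 1755 and 1687 CPM in WT and 3191, 3453 and 1459 CPM in KO, with 0 genes under either threshold and 10 of 10 log2 fold changes positive. The 10 monocyte or macrophage markers summed to 1914, 1193 and 1274 CPM in WT and 2127, 2383 and 1274 CPM in KO, with 0 genes after adjustment, 4 at an unadjusted p under 0.05 and 9 of 10 log2 fold changes positive. The genes of this list did not move alike, as 3 of them, named after their values were seen, show. Mertk, a receptor of phagocytic macrophages, had 19.5, 14.0 and 17.8 CPM in WT and 52.5, 61.7 and 21.2 CPM in KO, all KO libraries above all WT libraries (unadjusted p = 0.00427, adjusted p = 0.556, edgeR). Vcam1 had 117 ± 29.8 CPM in WT and 274 ± 123 CPM in KO (SD, n = 3 each; unadjusted p = 0.00667, adjusted p = 0.624, edgeR). Ly6c2, a monocyte gene, had 486, 446 and 418 CPM in WT and 324, 298 and 538 CPM in KO. The 10 T cell markers summed to 3659, 4856 and 4628 CPM in WT and 3354, 2578 and 4664 CPM in KO, with 0 of 10 log2 fold changes positive and 1 gene at an unadjusted p under 0.05. None of the markers in these 4 lists was at 0 in all libraries. The 8 neutrophil markers followed the same libraries as the B cell markers, at 1056, 303 and 251 CPM in WT and 1120, 1321 and 414 CPM in KO, with 8 of 8 log2 fold changes positive. The 9 erythroid markers found were also all positive, so a shared direction was not limited to the DC markers. The sums of the 5 plasmacytoid DC markers (126 to 162 CPM) and of the 7 markers of migratory or mature DCs (598 to 729 CPM, with Ccl17 at 0 in all libraries) overlapped between the genotypes. Most of the latter sum was Ccr7 (441 to 574 CPM, log2 fold change -0.19). The log2 fold change was positive in 5 of the 6 tested genes of migratory or mature DCs, with 0 at an unadjusted p under 0.05, and in 1 of the 4 tested plasmacytoid DC genes.

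Icosl, Cd40 and Cd274 varied with the B cell and the monocyte or macrophage markers, and against the T cell markers. Over the 6 libraries, which share their totals, Pearson's r of log2 CPM with the summed B cell markers was 0.97 for Icosl, 0.96 for Cd274 and 0.93 for Cd40. With the monocyte or macrophage markers it was 0.97 for Icosl, 0.95 for Cd40 and 0.89 for Cd274. With the summed T cell markers it was -0.88 for Icosl, -0.86 for Cd40 and -0.81 for Cd274. Per 1000 CPM of B cell markers, Icosl was 33.96 ± 1.05 CPM in WT and 33.9 ± 6.81 CPM in KO (SD, n = 3 each). Cd40 on the same scale was 10.1 ± 0.355 CPM in WT and 11.6 ± 2.07 CPM in KO. With the level of the B cell markers as a covariate in edgeR's test, the log2 fold change of Icosl was 0.06 (SE 0.09), that of Cd274 was -0.04 (SE 0.08) and that of Cd40 was 0.25 (SE 0.14). With the monocyte or macrophage markers as the covariate, an alternative chosen after seeing the data, it was -0.17 (SE 0.12) for Icosl, -0.18 (SE 0.11) for Cd274 and 0.01 (SE 0.18) for Cd40. The low genes Cd80 and Pdcd1lg2 had r of 0.78 and 0.69 with these markers, and log2 fold changes of 0.23 (SE 0.38) and 0.22 (SE 0.40) under this covariate. Their r with the T cell markers was -0.80 and -0.56.

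For Cd86, r was 0.66 with the B cell markers, 0.79 with those of monocytes or macrophages, 0.87 with those of conventional DCs and -0.78 with those of T cells, again as a description over the 6 libraries. With the B cell covariate the log2 fold change of Cd86 was 0.28 (SE 0.09, unadjusted p = 0.0119, adjusted p = 0.445, edgeR), and with the monocyte or macrophage covariate it was 0.23 (SE 0.105, unadjusted p = 0.0523, adjusted p = 0.774, edgeR). Per 1000 CPM of conventional DC markers, Cd86 was 168, 164 and 155 CPM in WT and 181, 169 and 146 CPM in KO, so the groups overlapped, with means of 162 ± 6.78 and 165 ± 18.1 CPM (SD, n = 3 each). They also overlapped per 1000 CPM of monocyte or macrophage markers (26.8 ± 5.11 in WT and 26.4 ± 7.05 in KO) and of B cell markers (18.6 ± 4.37 and 20.1 ± 8.60). The sum of DC markers itself separated the genotypes, as did Mertk among the monocyte or macrophage markers, so their part in the difference of Cd86 cannot be told apart from genotype. Per 1000 CPM of the same markers, Cd80 was 9.94 ± 0.894 CPM in WT and 10.7 ± 2.07 CPM in KO.

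**Figure D3:**
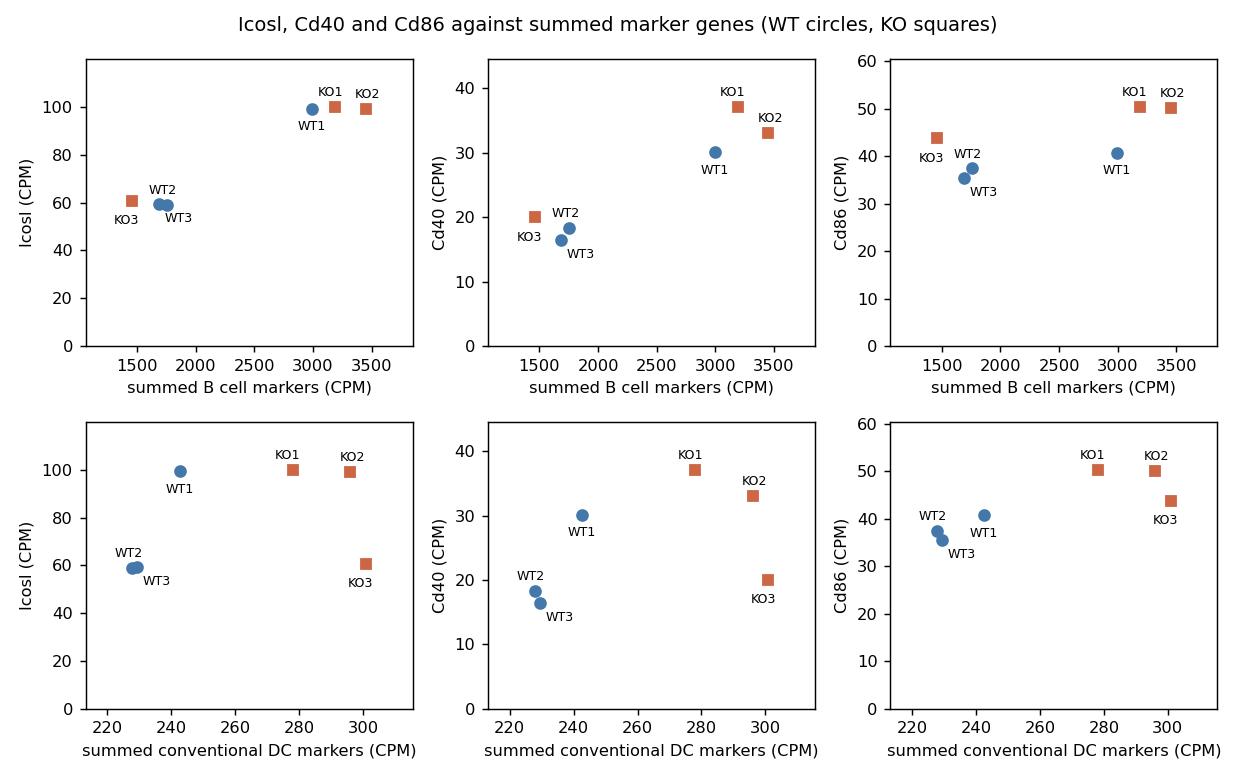
CPM of Icosl, Cd40 and Cd86 (y axes, from 0) against the summed CPM of 10 B cell markers (upper row) or 10 conventional DC markers (lower row) in each library, WT as circles and KO as squares. Icosl and Cd40 are high in the 3 libraries with a high B cell sum (WT1, KO1 and KO2), Cd86 lies between 35.5 and 40.7 CPM in WT and between 43.8 and 50.3 CPM in KO, and the DC sum is above 278 CPM in KO and at most 243 CPM in WT.

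The partners of these molecules on T cells were read in the same libraries. Of the 8 partner genes, all were tested, 0 passed after adjustment, 0 had an unadjusted p under 0.05 in edgeR's test, and 3 log2 fold changes were positive and 5 negative, with a median of -0.05. Icos was the only one of the 8 in which all KO libraries were above all WT libraries (6.71% of all genes tested), with 40.8, 35.8 and 33.5 CPM in WT and 41.1, 41.7 and 43.4 CPM in KO (log2 fold change 0.18, SE 0.10, adjusted p = 0.817, edgeR). WT replicate 1 had 359 counts of Icos and KO replicate 1 had 351, so KO replicate 1 was above it in CPM only through the library totals. With 1 library left out, the log2 fold change of Icos ranged from 0.10 (without WT replicate 3) to 0.25 (without WT replicate 1). Cd28, the receptor of CD80 and CD86, had 155, 152 and 142 CPM in WT and 127, 177 and 167 CPM in KO (log2 fold change 0.05). Ctla4, its inhibitory competitor, had 54.0, 41.6 and 40.6 CPM in WT and 40.4, 54.4 and 35.6 CPM in KO (log2 fold change -0.08). In both genes WT and KO values overlapped.

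Pdcd1, which encodes PD-1, was low, with 3.87, 4.06 and 3.19 CPM in WT and 2.58, 2.31 and 4.09 CPM in KO. Its log2 fold change was -0.32 (adjusted p = 0.874, edgeR), with KO replicate 3 above all WT libraries and the other KO libraries below them. Cd40lg, the CD40 ligand, spread widest, from 1.35 to 7.51 CPM in WT and from 1.93 to 7.73 CPM in KO (log2 fold change 0.45, SE 0.67, and 0.043 to 1.43 with 1 library left out). Tnfrsf9, which encodes 4-1BB, had 12.1, 12.4 and 14.7 CPM in WT and 12.9, 7.29 and 10.2 CPM in KO (log2 fold change -0.38, SE 0.23, adjusted p = 0.817, edgeR), and KO replicate 1 lay within the WT range. Tnfrsf4, which encodes OX40, lay between 6.14 and 10.1 CPM in WT and between 6.32 and 9.13 CPM in KO. Cd27, the receptor of CD70, lay between 112 and 181 CPM in WT and between 93.5 and 170 CPM in KO (log2 fold change -0.21). The receptors of the TNF family ligands were therefore measured in every library, whereas Tnfsf4 and Cd70 stayed at or near 0.

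**Figure D4:**
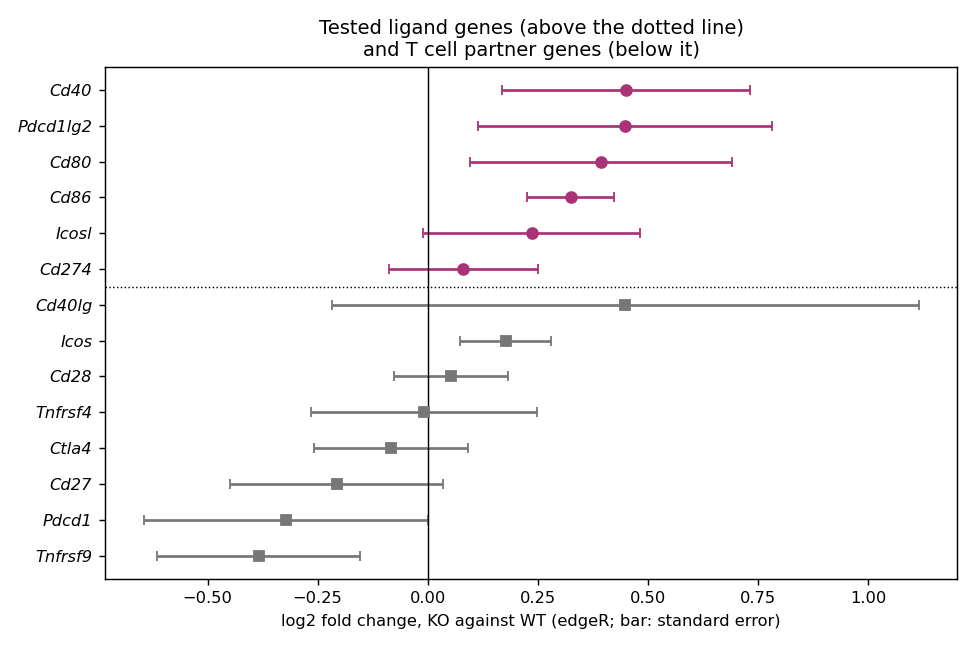
Log2 fold change of KO against WT (x axis, edgeR, bars are standard errors) for the 6 tested ligand genes (circles, above the dotted line) and the 8 T cell partner genes (squares, below it). The ligand genes lie between 0.08 and 0.45 and the partner genes between -0.38 and 0.45, and none passed after adjustment over all genes.

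Of 20 further surface molecules that act on T cells, of the B7 and TNF families and of others such as adhesion molecules, 18 were found and 12 tested. None passed after adjustment in edgeR's test, 8 log2 fold changes were positive and 4 negative, and the median was 0.06. Vsir, which encodes the inhibitory B7 relative VISTA, was the single one of the 12 with an unadjusted p under 0.05, beside 2.11% of all genes tested that were lower in KO at that threshold. It had 384, 415 and 456 CPM in WT and 370, 338 and 375 CPM in KO, with all KO libraries below all WT libraries, as in 4.81% of the genes tested (log2 fold change -0.23, SE 0.10, unadjusted p = 0.0479, adjusted p = 0.786, edgeR). Tnfsf8, the ligand of CD30, had 57.2, 67.0 and 57.7 CPM in WT and 44.5, 37.3 and 62.9 CPM in KO (log2 fold change -0.35, SE 0.19). Without KO replicate 3 its log2 fold change was -0.62 (adjusted p = 0.0981, edgeR), and without KO replicate 2 it was -0.19. Cd48, a ligand of CD244, had the highest level per length of this list and lay between 117 and 148 CPM in WT and between 108 and 122 CPM in KO.

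Of 20 genes that relay the signals of these receptors, all were tested, 0 passed after adjustment, and 0 had an unadjusted p under 0.05 in edgeR's test. The log2 fold change was positive in 14 and negative in 6, with a median of 0.07. Traf5, an adaptor of CD40, CD27 and OX40, was among the 2 of 20 genes with all KO libraries above all WT libraries (6.71% of all genes tested), at 53.2 ± 0.159 CPM in WT and 59.0 ± 1.28 CPM in KO (SD, n = 3 each; log2 fold change 0.13, SE 0.08, adjusted p = 0.817, edgeR). Traf1, an adaptor of 4-1BB and of other TNF receptors, had 179, 209 and 190 CPM in WT and 161, 132 and 190 CPM in KO (log2 fold change -0.28, SE 0.14), with -0.45 without KO replicate 3 and -0.15 without KO replicate 2. Ptpn6, which encodes the phosphatase SHP-1, had a mean of 431 ± 28.4 CPM in WT and 481 ± 76.1 CPM in KO, and Pik3cd, the leukocyte PI3K subunit, 944 ± 165 and 858 ± 104 CPM (SD, n = 3 each).

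For each tested ligand gene, the 2 genes with the most similar pattern of log2 CPM over the 6 libraries were taken from 10599 candidates, so high values of r arise among so many genes. The nearest to Icosl were Fcrl1, a B cell Fc receptor-like gene (r = 0.998), and Arap3 (r = 0.996). Fcrl1 had 73.4 CPM in WT replicate 1 and 75.2 and 76.2 CPM in KO replicates 1 and 2, against 34.4 to 36.6 CPM in the other 3 libraries, the same division as Icosl. Cd274 was most like H2-Eb2, a class II histocompatibility gene, and Ptafr, the receptor of platelet-activating factor (r = 0.997 each). Cd40 was most like Dtnbp1 (r = 0.993) and the predicted gene Gm42870 (r = 0.991). Cd86 was most like Ganc, an alpha-glucosidase gene, with 39.3 to 43.8 CPM in WT and 46.1 to 50.6 CPM in KO (r = 0.995), and Cpq, a carboxypeptidase gene (r = 0.994). The low genes had lower values of r, with Kcnj16 (0.988) and Slc45a3 (0.985) for Cd80 and Tmem176a (0.979) and Fbxo4 (0.971) for Pdcd1lg2.

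Among the ligand genes themselves, r over the 6 libraries was 0.97 between Cd40 and Icosl, 0.94 between Icosl and Cd274, and 0.91 between Cd40 and Cd274. Cd80 and Cd86 had r = 0.93 with each other. The lowest value was 0.59, between Cd86 and Cd274. These are descriptions over libraries that share the same differences in markers.

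**Figure D5:**
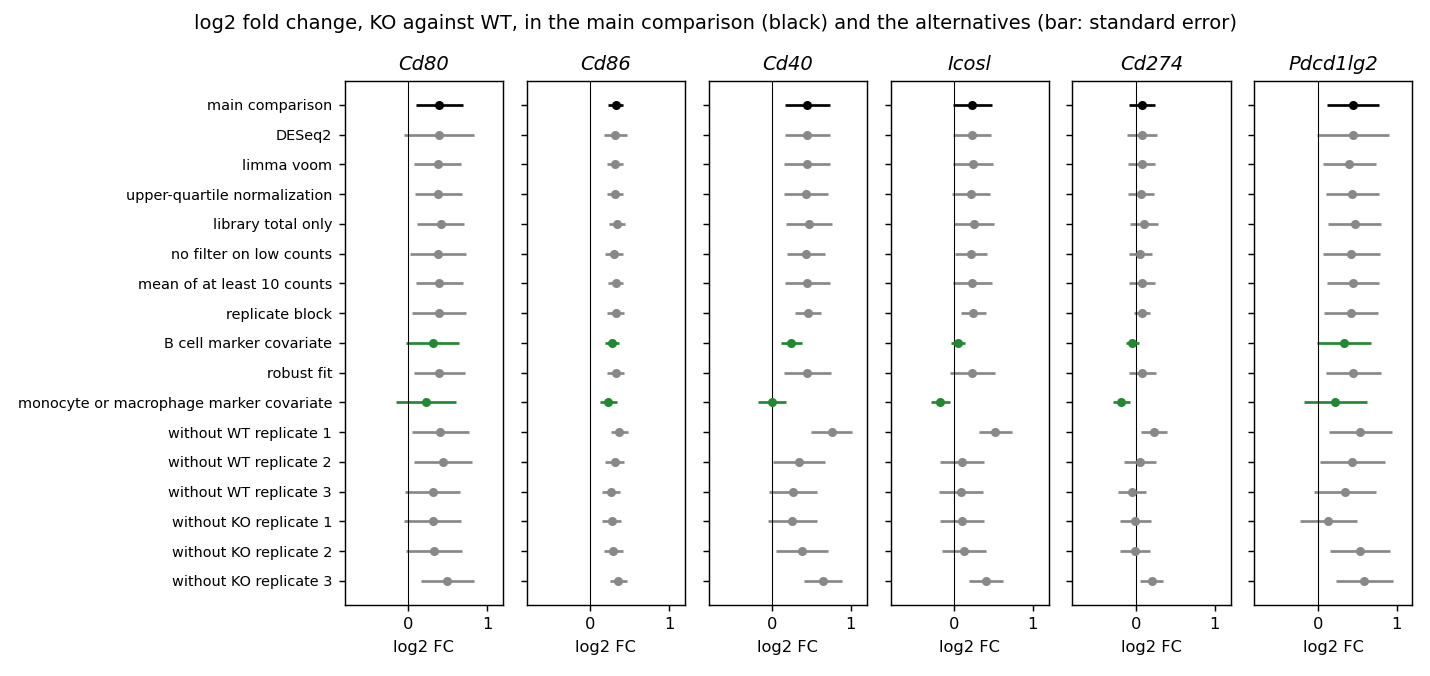
Log2 fold change of KO against WT (x axes, bars are standard errors) of the 6 tested ligand genes in the main comparison (black), under 2 marker covariates (green) and under the other alternatives (grey). The fit on the DC markers is left out, because its standard errors run past the axis in every gene except Cd86 (0.24, SE 0.67). Cd86 stays between 0.23 and 0.37 throughout, whereas Icosl and Cd274 reach -0.17 and -0.18 with the monocyte or macrophage markers.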

How the data were processed

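The authors deposited 1 table per library of Ensembl genes with an expected count each, an estimate of reads that may be a fraction and is not scaled for depth or length. The unit was read from the values (3527 to 4925 genes per library are not whole). Per the labels, libraries were made from total RNA with a SMARTER mRNA kit, and the submitters' processing notes name GRCm38 and mm10. The aligner, the counter and any use of strand are not given in the sources used here. Of 44678 identifiers, 44121 (98.75%) have a symbol in GENCODE M21 (GRCm38), which also gave positions, exon lengths and 3′ UTRs. Of the 127 list symbols, 124 were found.

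Counts were rounded to whole numbers and compared in R 4.3.3 with edgeR 4.0.16 (TMM factors 0.989 to 1.01, filterByExpr at min.count 10 and min.total.count 15, quasi-likelihood test, Benjamini-Hochberg adjustment over 13024 genes, threshold 0.05). CPM is counts per 1000000 counts of the library total. Genes under the filter were compared by an exact permutation test. Patterns were compared on log2 CPM with a prior count of 2, among genes of at least 5 CPM on average. Libraries of 1 genotype differed beyond counting noise (6.41 to 23.7 chi-square units per degree of freedom).

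The members and all gene lists were chosen with earlier results of these data known. The genes named are every member and partner, the 2 genes with the smallest unadjusted p and the 2 with the highest level per length of each further list, the 2 genes most like each tested member, and Cd8a, Cd3e, Cd79a, Itgax and Zbtb46 as checks of the cells (another check gene is not reported here). Mir144 and Mir451a were added as the deleted genes. Mertk, Vcam1, Ly6c2, Ccr7 and Ccl17, of the marker lists, fall outside this rule and were named after their values were seen. Alternatives were DESeq2 1.42.0, limma 3.58.1 (voom), upper-quartile normalization, library totals alone, no filter, a filter at a mean of 10 counts, a robust fit, the replicate number as a block, B cell or conventional DC markers as a covariate, each library left out, and, added after seeing the data, monocyte or macrophage markers as a covariate.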

Additional observations from a re-analysis of the deposited data

How the results depend on the processing

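No ligand gene, partner, further ligand or signalling gene passed after adjustment under any alternative run. The number of genes called among all tested, 4 in the main comparison, was 56 with DESeq2, 12 with no filter, 9 with the replicate block, 30 with the B cell covariate, 11 with the monocyte or macrophage covariate and 0 with the conventional DC covariate (339 at an unadjusted p under 0.05), and it ranged from 2 to 94 with 1 library left out, the highest without KO replicate 3. The number of ligand genes at an unadjusted p under 0.05, 1 in the main comparison, was 2 with the replicate block, 0 with the DC or the monocyte or macrophage covariate, and 0 to 3 with 1 library left out, with 3 without WT replicate 1. Over all genes tested, 814 of 13024 were under that threshold in the main comparison and 685 of 13024 with the block. Without WT replicate 1 it was 1229 of 13293, and without KO replicate 3 it was 1869 of 13302. Tnfsf9 also passed the filter in the fits with 1 library left out. The score of the DC markers separated the genotypes, so that fit has standard errors of 0.67 to 2.0 for the ligand genes.

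Log2 fold changes turned sign with the DC covariate for Cd80 (-0.21), Cd40 (-0.21), Pdcd1lg2 (-1.97), Ctla4 (0.98), Cd40lg (-0.91), Pdcd1 (1.64), Tnfrsf4 (0.02), Tnfsf8 (0.61), Cd48 (0.18), Traf5 (-0.0056) and Ptpn6 (-0.23). They did so with the monocyte or macrophage covariate for Icosl (-0.17), Cd274 (-0.18), Cd40lg (-0.64), Cd27 (0.17), Ptpn6 (-0.051) and Pik3cd (0.053), and with the B cell covariate for Cd274 (-0.042) and Cd40lg (-0.0089). Tnfrsf4 was at 0.0034 with voom, 0.0096 with library totals alone and 0.0038 with the replicate block. With 1 library left out, Cd274 ranged from -0.05 to 0.23, Cd28 from -0.04 to 0.17, Ctla4 from -0.27 to 0.053 and Tnfrsf4 from -0.16 to 0.22, and the KO minus WT difference of Tnfsf9 from -0.116 to 0.692 CPM. Pdcd1 (-0.65 to -0.17), Tnfrsf9 (-0.6 to -0.19) and Cd27 (-0.45 to -0.0039) kept their sign there. Why these values turned sign was not tested. The deviations of same-numbered WT and KO libraries had r of -0.01, -0.20 and 0.11, which with so few libraries cannot exclude a pairing. With the block, the SE of Cd40 was 0.165 against 0.28 in the main comparison (unadjusted p = 0.0289, adjusted p = 0.912, edgeR). For Icosl it was 0.16 against 0.25 and for Cd274 0.11 against 0.17, whereas for Cd86, Cd80 and Pdcd1lg2 it was larger than in the main comparison. The block changed no call among the listed genes.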
